A study of Mus musculus with 6 samples.

Results

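The 37 cell cycle genes described here were selected by symbol, through the Ensembl identifier of each row of the deposited count table, and all 37 were found among its 22095 genes. They cover the cyclins and cyclin-dependent kinases, 4 inhibitors of these kinases, the transcription factor E2f1, genes of DNA replication, genes of mitosis, and Plagl1. RNA was sequenced from olfactory bulbs of outbred ICR mice, 3 animals with 2 libraries each. A silica gel plug was placed in the left naris at postnatal day 30, and the bulbs were dissected after a further 60 days. The left bulb, on the plugged side, is compared with the right bulb of the same animals, on the open side. No unplugged animal was among the samples, so a side difference that exists without the plug and one that follows it cannot be told apart.

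Cell division is driven by cyclins, which bind and activate cyclin-dependent kinases in a fixed order. D-type cyclins with Cdk4 or Cdk6 act in G1 and release E2F factors from the retinoblastoma protein, E- and A-type cyclins with Cdk2 act at the start of DNA synthesis and in S phase, and B-type cyclins with Cdk1 act in mitosis. The adult bulb continues to receive newborn interneurons, which arise from dividing cells along the ventricle wall and in the migratory stream, while most bulb neurons no longer divide. Several of these genes, D-type cyclins and kinase inhibitors among them, are also expressed in cells that do not divide.

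The libraries held 14571453 to 15590938 counts, and values are given as CPM, that is, counts relative to the library total. A count of 0 would allow up to 3 counts, or 0.192 to 0.206 CPM, and this limit covers counting error only. The library labelled left 1038 stood apart. It held 5692 CPM of the 8 cerebellar granule cell markers, against 389 to 425 CPM in the other 5 libraries, and 431 CPM of the 9 bulb interneuron markers, against 2090 to 2375 CPM. Its neuroblast markers summed to 121 CPM, against 1086 to 1426 CPM. It is therefore shown apart, and the tests below compare left 1037 and left 1039 with right 1037, right 1038 and right 1039. Results with all 6 libraries are given as well. The tests of the 5 libraries also apply a normalization factor (TMM) to each library, which CPM values do not include. The factors were 1.03 and 1.04 for left 1037 and left 1039, against 0.971, 0.979 and 0.983 for right 1037, right 1038 and right 1039. Left levels thus stand somewhat higher in CPM than on the scale of the tests. In whole bulbs, fewer cells of a type and less RNA per cell cannot be told apart.

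Levels among the 37 genes spanned the range from under 1 CPM to over 100 CPM in these 5 libraries. Per kilobase of annotated exon, the highest levels were those of the inhibitors Cdkn1a, with 22.7 CPM per kilobase, and Cdkn1b, with 22.0, followed by the kinase Cdk4, with 20.0. Pcna, the sliding clamp of the DNA polymerases, had 12.3 CPM per kilobase. The genes used to mark dividing cells were low on the same scale, with 0.181 CPM per kilobase for Mki67, which encodes the Ki-67 protein, and 0.177 for Top2a, topoisomerase II alpha. Cdk1 and Ccnb1, the mitotic kinase and its cyclin, had 0.118 and 0.110 CPM per kilobase. Levels per kilobase overlapped between the roles, as the mitosis gene Spag5 had 1.20 CPM per kilobase, above Cdk2 with 0.894 and Mcm2 with 0.590.

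**Figure D1:**
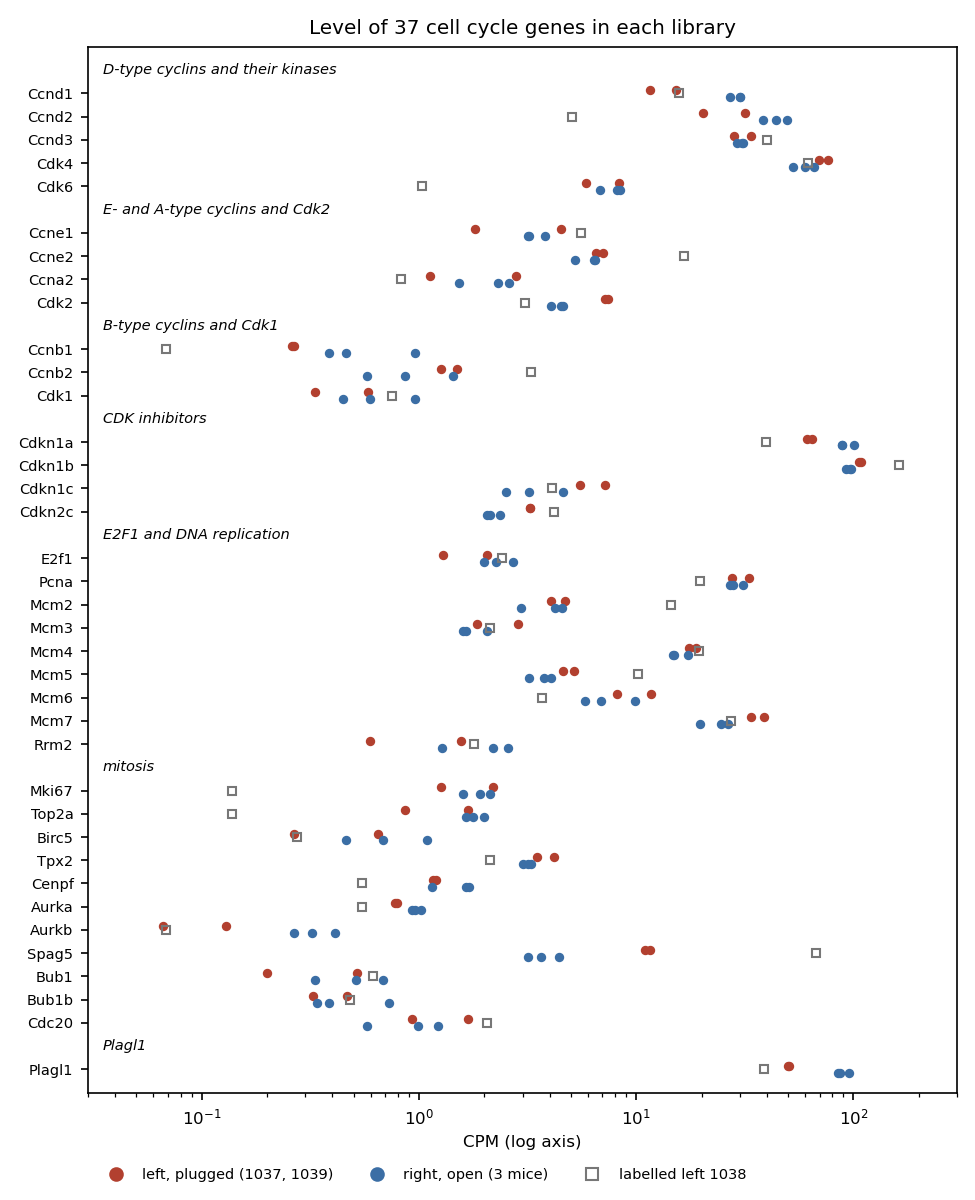
Level of each of the 37 genes in CPM on a log axis, grouped by role. Red points are left 1037 and left 1039, blue points are the 3 right libraries, and open squares are the library labelled left 1038. Cdkn1b, Cdkn1a, Plagl1 and Cdk4 lie at the right end, and Aurkb, Ccnb1, Cdk1, Bub1 and Bub1b lie below 1 CPM in every library.

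Of the 37 genes, 32 passed the filter on low counts and were tested in the 5 libraries. In the left bulbs 3 rose, Spag5, Mcm7 and Cdk2, and 4 fell, Ccnd1, Ccnd2, Cdkn1a and Plagl1, at an adjusted p under 0.05 in edgeR's quasi-likelihood test. These are 9.38% and 12.5% of the tested members. Over all 14412 genes tested, 9.62% were called, 3.16% higher and 6.46% lower. The members were chosen with earlier results of these data known, so setting their shares beside these is not a test. The median log2 fold change, left over right, was 0.04 over the tested members and 0.005 over all genes tested, and 16 members lay above 0 and 16 below. With the mouse as a block 2 members were called higher and 4 lower, where 10.8% of all genes were called, 3.41% higher and 7.36% lower. All 6 were among the 7, and Cdk2 was the member whose call ended. The mouse whose left library is shown apart has only its right library in this blocked fit. That library adds nothing to the blocked side difference, which rests on the mice with both sides alone. With 5 libraries the blocked fit leaves little to estimate the variation of each gene. Its p-values therefore lean on the variation shared over genes.

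With all 6 libraries edgeR called 0 of the 31 members tested and 0% of 14209 genes. At an unadjusted p under 0.05 lay 6 members and 8.42% of all genes. The smallest adjusted p of a member was 0.343, for Plagl1. limma-voom also called 0 members. DESeq2 called 4 members, Ccnd1, Cdkn1a and Plagl1 lower and Spag5 higher, where it called 1.31% of all genes.

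**Figure D2:**
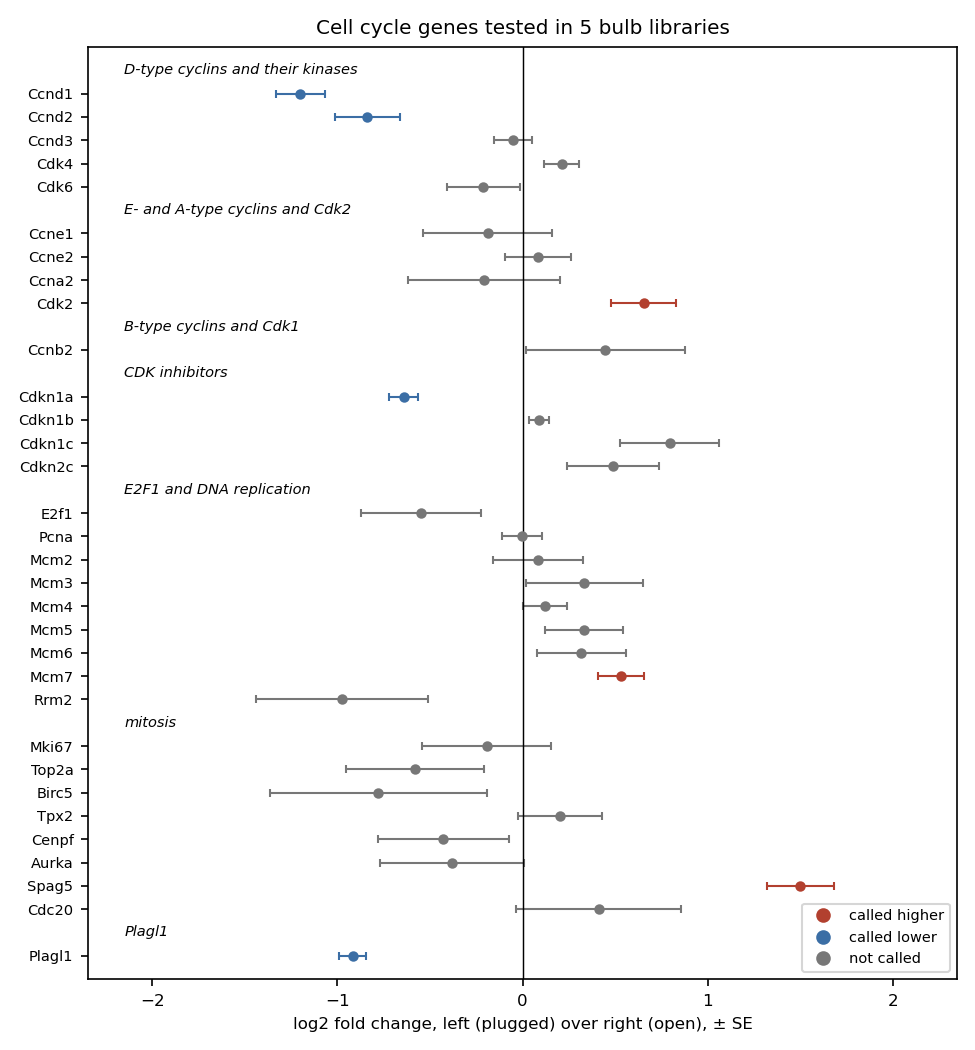
Log2 fold change, left over right, with its SE for the 32 members tested in the 5 libraries, grouped by role. Red points were called higher, blue points lower, and grey points were not called. Spag5 lies farthest to the right at 1.50 and Ccnd1 farthest to the left at -1.20.

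Among the D-type cyclins, Ccnd1 and Ccnd2 fell on the plugged side and Ccnd3 did not pass the test. Ccnd1 (ENSMUSG00000070348, chromosome 7, 144929931 to 144939925 on GRCm38) encodes cyclin D1. It had 15.2 and 11.5 CPM in left 1037 and left 1039, against 30.1, 30.1 and 27.0 CPM in right 1037, right 1038 and right 1039. Both left libraries lay below every right library, and the means were 13.4 ± 2.60 CPM (SD, n = 2) in left bulbs and 29.1 ± 1.78 CPM (SD, n = 3) in right bulbs. In log2 units Ccnd1 fell by 1.20 (SE 0.13, adjusted p = 0.00113), and the fall was 0.96 within mouse 1037 and 1.19 within mouse 1039 on the log2 (CPM + 0.5) scale. The call held when any of the 5 libraries was left out, with an adjusted p of at most 0.00797. Its span overlaps that of LTO1 on the other strand by 1771 bases, and LTO1 had 23.7 to 26.4 CPM in the 5 libraries.

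Ccnd2 (ENSMUSG00000000184, chromosome 6, 127125162 to 127152193), cyclin D2, had 31.7 and 20.3 CPM in left 1037 and left 1039, against 49.5, 44.1 and 38.2 CPM in right 1037, right 1038 and right 1039. The groups did not overlap, but the left libraries differed from each other by more than the gap between the groups. In log2 units Ccnd2 fell by 0.84 (SE 0.17, adjusted p = 0.0168). The value was -0.54 (adjusted p = 0.0554) without left 1039 and -0.73 (adjusted p = 0.0693) without right 1037, so the call ended in both cases. In the library labelled left 1038 Ccnd2 stood at 5.08 CPM, below each of the 5.

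Ccnd3, cyclin D3, had 33.8 and 28.1 CPM on the left and 30.9, 29.2 and 30.9 CPM on the right, with a log2 fold change of -0.05 (SE 0.10, adjusted p = 0.807). The groups overlapped. Cdk4, a kinase partner of the D-type cyclins, had 76.5 and 69.2 CPM on the left, against 52.6, 59.9 and 66.1 CPM on the right. Its left libraries lay above every right library in CPM, but the sides overlapped with the TMM factors applied. The log2 fold change of 0.21 (SE 0.09, adjusted p = 0.202) did not pass. Cdk6, the other partner, had 0.539 CPM per kilobase against 20.0 for Cdk4, and a log2 fold change of -0.21 (SE 0.20, adjusted p = 0.557). Per kilobase the D-type cyclins lay close to each other over the 5 libraries, with 4.84 for Ccnd1, 3.91 for Ccnd2 and 3.49 for Ccnd3.

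**Figure D3:**
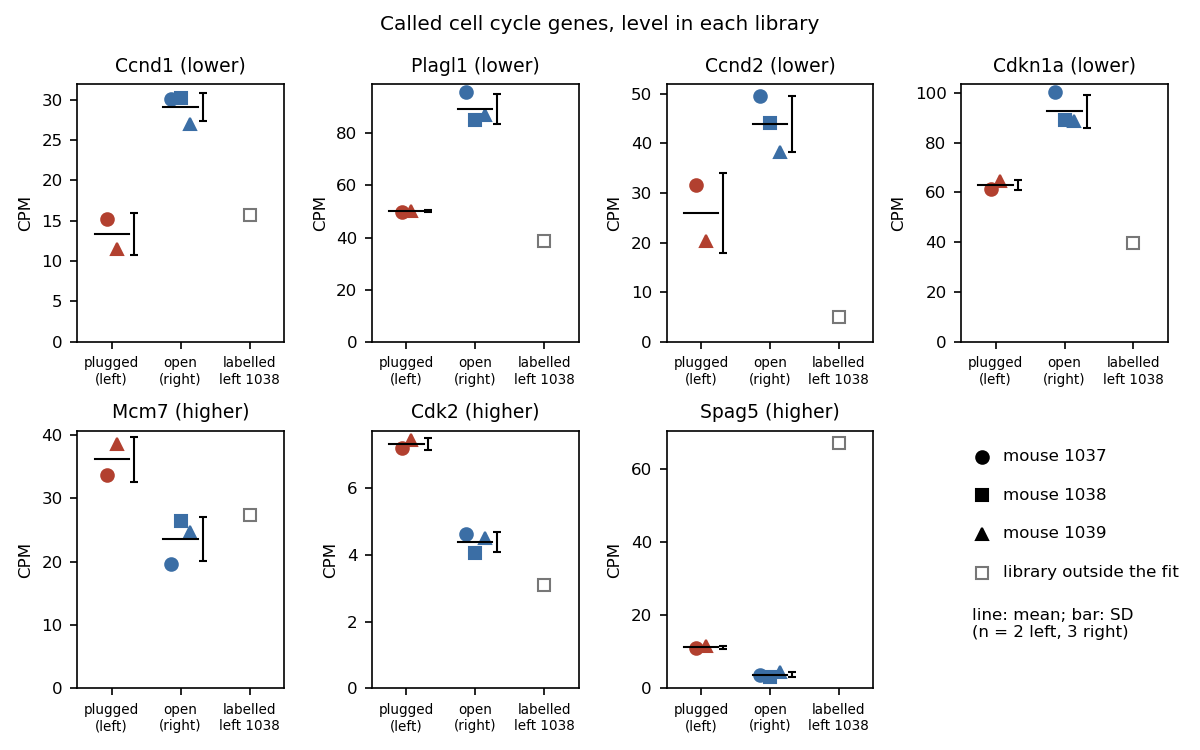
Level in CPM, on axes that start at 0, of the 7 genes called in the 5 libraries, with the plugged side left of the open side and the library labelled left 1038 apart as an open square. Lines are means and bars are SDs (n = 2 left, 3 right), and marker shapes give the mouse. In each of the 7 genes the left and right libraries do not overlap.

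Of the E- and A-type cyclins and Cdk2, only Cdk2 was called, and the call ended under several alternatives. Cdk2 (ENSMUSG00000025358, chromosome 10, 128697939 to 128705031), the S-phase kinase, had 7.19 and 7.43 CPM on the left, against 4.62, 4.04 and 4.51 CPM on the right. The groups did not overlap. The log2 fold change was 0.65 (SE 0.18, adjusted p = 0.0458), with the mouse as a block it was 0.60 (adjusted p = 0.0829), and DESeq2 gave an adjusted p of 0.103. Leaving out any of the 5 libraries ended the call, with values of 0.60 to 0.70 and adjusted p up to 0.142. Ccne1 and Ccne2, the E-type cyclins, had log2 fold changes of -0.19 (SE 0.35) and 0.09 (SE 0.18). Ccna2, cyclin A2, had -0.21 (SE 0.41) from 43 and 17 reads on the left and 23 to 38 reads on the right. Their adjusted p lay between 0.790 and 0.816.

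The B-type cyclins and Cdk1 were close to the limit of these libraries. Ccnb2 had 1.49 and 1.26 CPM on the left, against 0.577, 0.861 and 1.43 CPM on the right, and a log2 fold change of 0.45 (SE 0.43, adjusted p = 0.576). Ccnb1 did not pass the filter, with 4 reads in each left library, against 6, 7 and 14 on the right. Cdk1 did not pass it either, with 9 and 5 reads on the left, against 7, 9 and 14 on the right. Both left libraries lay below every right library for Ccnb1, and the groups overlapped for Cdk1. Depth did not allow a side difference to be judged for Ccnb1 and Cdk1.

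Of the 4 inhibitors of cyclin-dependent kinases, Cdkn1a fell and the others did not pass the test. Cdkn1a (ENSMUSG00000023067, chromosome 17, 29090976 to 29100727) encodes p21, an inhibitor that p53 is known to induce and that also responds to other signals. It had 61.4 and 64.4 CPM on the left, against 100.3, 89.0 and 88.7 CPM on the right. Both left libraries lay below every right library, and the log2 value fell by 0.64 (SE 0.08, adjusted p = 0.00144). The call held when any of the 5 libraries was left out, with an adjusted p of at most 0.00679. Cdkn1b, which encodes p27, had 106.6 and 108.5 CPM on the left, against 92.6, 96.5 and 97.6 CPM on the right. Its log2 fold change was 0.09 (SE 0.06, adjusted p = 0.374). Cdkn1c, which encodes p57 and is imprinted, had 7.19 and 5.51 CPM on the left, against 4.62, 2.52 and 3.21 CPM on the right, and a log2 fold change of 0.79 (SE 0.27, adjusted p = 0.0984). Cdkn2c, which encodes p18 and binds Cdk4 and Cdk6, had 0.49 (SE 0.25, adjusted p = 0.262). The left libraries of Cdkn1b, Cdkn1c and Cdkn2c lay above every right library, but none of these 3 passed the test.

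RefSeq sequence before the start of Cdkn1a is shown because, of the called members in the promoter table, it held p53 half-sites, which are set in capitals. The 250 bases before its first listed start, chr17:29090729-29090978 on the plus strand of GRCm38, read 5′ to 3′ as follows.
Cdkn1a: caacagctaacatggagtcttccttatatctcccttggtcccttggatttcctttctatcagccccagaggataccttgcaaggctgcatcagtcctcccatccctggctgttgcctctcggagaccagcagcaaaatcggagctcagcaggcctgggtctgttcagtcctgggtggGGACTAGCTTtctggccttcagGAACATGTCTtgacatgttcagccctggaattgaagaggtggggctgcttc
Half-sites stand 73 and 51 bases before the start, and 7.18% of the promoters of all 27025 genes in the RefSeq table held at least 1. A match in letters does not show that a factor binds there.

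Among E2f1 and the genes of DNA replication, Mcm7 rose and the others did not pass the test. Mcm2 to Mcm7 encode the subunits of the replicative helicase, which is loaded on DNA in G1. Mcm7 (ENSMUSG00000029730, chromosome 5, 138164583 to 138172422) had 33.7 and 38.6 CPM on the left, against 19.7, 26.4 and 24.7 CPM on the right. The groups did not overlap. Mcm7 rose by 0.53 (SE 0.12, adjusted p = 0.0276) on the log2 scale. The call ended without left 1039 (0.44, adjusted p = 0.121), without right 1037 (0.43, adjusted p = 0.0648) and without right 1039 (0.57, adjusted p = 0.0538). Its span overlaps that of Ap4m1 on the other strand by 421 bases and that of Cops6 by 64 bases. Ap4m1, a subunit of an adaptor complex of vesicle transport, had 48.0 and 48.9 CPM on the left, against 32.2, 32.7 and 38.8 CPM on the right, and rose by 0.41 (SE 0.09, adjusted p = 0.0271). That call ended without left 1037, left 1039, right 1037 or right 1038, with adjusted p up to 0.0887, and in the DESeq2 fit blocked by mouse (adjusted p = 0.419). Cops6 had 62.9 to 64.9 CPM in the 5 libraries. Strand use in counting is not stated, and the part of Ap4m1 reads in the Mcm7 count was not tested.

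The other 5 helicase subunits had log2 fold changes of 0.08 for Mcm2, 0.33 for Mcm3, 0.12 for Mcm4, 0.33 for Mcm5 and 0.32 for Mcm6, with SEs of 0.12 to 0.32, and none passed the test. In CPM the left libraries of Mcm4 and Mcm5 lay above every right library, while those of Mcm2, Mcm3 and Mcm6 overlapped the right. With the TMM factors applied, those of Mcm4 overlapped the right as well. Per kilobase the subunits were unequal, with 6.47 CPM for Mcm7, 4.65 for Mcm4 and 0.534 for Mcm3. Pcna had 27.7 and 33.1 CPM on the left, against 31.2, 28.0 and 27.0 CPM on the right, a difference within the spread between libraries (log2 fold change -0.001, SE 0.11, adjusted p = 0.995). Rrm2, the regulatory subunit of ribonucleotide reductase, which supplies nucleotides, had 1.55 and 0.597 CPM on the left, against 1.28, 2.58 and 2.18 CPM on the right (log2 fold change -0.97, SE 0.47, adjusted p = 0.232). The Rrm2 value was -1.82 without left 1037 and -0.44 without left 1039. E2f1 had 1.30 and 2.06 CPM on the left, against 1.99, 2.72 and 2.25 CPM on the right (log2 fold change -0.55, SE 0.33, adjusted p = 0.340). The sides of E2f1 overlapped in CPM, but both left libraries lay below every right library with the TMM factors applied. The gene Necab3 starts 516 bases beyond the end of E2f1 on the same strand. Necab3 had 17.7 and 20.7 CPM on the left, against 43.7, 49.1 and 37.9 CPM on the right, and fell by 1.27 (SE 0.13, adjusted p = 8.15e-04). The part of Necab3 reads in the E2f1 count was not tested.

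The sequence before Mcm7 held matches to 3 of the motifs known from cell cycle promoters. The whole window lies in annotated UTR, and whether that UTR belongs to Mcm7 or to a gene on the other strand was not checked. Only the short stretch chr5:138172041-138172056 (minus strand, GRCm38, RefSeq), which lies within the spans of both Mcm7 and Ap4m1, is therefore shown, with the matches in capitals.
Mcm7: TTCGAAccGCGGGAAA
The capitals mark the cell cycle homology region motif (TTTGAA or TTCGAA) 173 bases and an E2F motif (TTTCCCGC, TTTGGCGC, TTTCGCGC or TTTGCCGC, here in reverse orientation) 165 bases before the start, with both strands searched. CCAAT boxes stand 72 and 26 bases before the start.

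Promoter sequence was found for 29 of the 37 members, and the 250 bases before the first listed start of each were searched. An E2F motif was present in 6 of the 29 (20.7%), which are Mcm5, Mcm6, Mcm7, Cdk1, Cdk2 and Plagl1, against 1.91% of the 27025 genes. CCAAT was present in 20 of the 29 (69.0%), against 34.5% of all genes. The homology region motif, which is known from genes of late cell cycle phases, was present in 8 of the 29 (27.6%), against 17.4% of all genes. The half-site of the cyclic AMP response element, TGACG, was present in 9 (31.0%), against 17.9%, and the full element, TGACGTCA, in 1, Mcm5. These matches describe the letters of the windows. Members with and without a motif were found both among called genes and among genes not called, as Cdk2, Mcm7 and Plagl1 held an E2F motif and Spag5 and Cdkn1a did not.

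Among the genes of mitosis Spag5 rose on the plugged side while the markers of dividing cells did not pass the test. Spag5 (ENSMUSG00000002055, chromosome 11, 78301529 to 78322457) encodes astrin, a protein of the mitotic spindle and the kinetochore. It had 10.9 and 11.5 CPM on the left, against 3.66, 3.18 and 4.44 CPM on the right. These levels rest on 169 and 174 reads on the left, against 57, 48 and 65 reads on the right. The groups did not overlap, and Spag5 rose by 1.50 (SE 0.18, adjusted p = 0.00148) on the log2 scale. The call held when any of the 5 libraries was left out, with values of 1.40 to 1.63 and adjusted p up to 0.0102. Within mice, the log2 ratio of left over right was 1.46 in mouse 1037 and 1.29 in mouse 1039. Aldoc, an enzyme of glycolysis, starts 510 bases beyond the end of Spag5 on the same strand and had 575 and 531 CPM on the left, against 497, 535 and 545 CPM on the right. The Aldoc values of the groups overlap. In the same libraries the cerebellar granule markers summed to 419 and 421 CPM on the left, against 389, 425 and 403 CPM on the right, so the sums overlapped. Of the 6 granule markers tested, 3 rose on the left and 1 fell, with a median log2 fold change of 0.42, against 3.16% higher and 6.46% lower over all genes tested. The 5 Purkinje cell markers summed to 222 and 232 CPM on the left, against 213, 205 and 212 CPM on the right, and 0 of the 4 tested were called. The Purkinje sums did not overlap in CPM, but they did with the TMM factors applied. Whether other cells of the bulb express these markers was not examined, and the part of cells with them in the Spag5 level was not tested.

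The sequence before Spag5 is shown as that of the member with the largest rise. The 190 bases chr11:78301341-78301530, on the plus strand of GRCm38 in RefSeq, end 2 bases into the annotated UTR and are given 5′ to 3′.
Spag5: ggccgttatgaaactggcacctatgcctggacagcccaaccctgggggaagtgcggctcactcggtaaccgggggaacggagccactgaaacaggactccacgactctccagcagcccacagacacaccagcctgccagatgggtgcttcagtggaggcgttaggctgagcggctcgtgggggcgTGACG
The capitals mark a TGACG half-site 65 bases before the RefSeq start. A CCAAT box stands 20 bases before the start, and the E2F letters searched did not occur in the 250 bases.

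The other 10 genes of mitosis summed to 12.6 and 10.2 CPM on the left, against 11.9, 12.3 and 12.7 CPM on the right. The groups overlapped in CPM. With the TMM factors applied, both left sums lay below every right sum, by a narrow margin for left 1037. Mki67 had 2.20 and 1.26 CPM on the left, against 1.60, 2.12 and 1.91 CPM on the right (log2 fold change -0.19, SE 0.35, adjusted p = 0.784). Top2a had 1.68 and 0.863 CPM on the left, against 1.99, 1.66 and 1.77 CPM on the right (log2 fold change -0.58, SE 0.37, adjusted p = 0.378). The Top2a value was -1.14 without left 1037 and -0.17 without left 1039. In both genes left 1039 was the lowest library, with 19 and 13 reads. In CPM, left 1037 was the highest library for Mki67 and lay within the right libraries for Top2a. With the TMM factors applied, both left libraries lay below every right library for Top2a and Cenpf, while the sides still overlapped for Mki67. Tpx2, which targets Aurora A to the spindle, and Cdc20, which activates the anaphase-promoting complex, had 0.20 (SE 0.23) and 0.41 (SE 0.44). Birc5, Cenpf and Aurka, which encode survivin, a kinetochore protein and Aurora A, had -0.78 (SE 0.58), -0.43 (SE 0.35) and -0.38 (SE 0.39). None of these 5 passed, with adjusted p from 0.459 to 0.638. With SEs of this size, smaller differences were not detectable at this depth.

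Aurkb, Bub1 and Bub1b did not pass the filter on low counts. Aurkb, the Aurora B kinase, had 2 and 1 reads on the left, against 5, 4 and 6 on the right. Bub1, a kinase of the spindle checkpoint, had 8 and 3 reads on the left, against 8, 5 and 10 on the right, and its partner Bub1b had 5 and 7 on the left, against 6, 11 and 5 on the right. The reads of Aurkb did not overlap between the groups, and those of Bub1 and Bub1b did.

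Plagl1 fell on the plugged side and had the smallest adjusted p of the members. Plagl1 (ENSMUSG00000019817, chromosome 10, 13060504 to 13131694) encodes the zinc finger protein Zac1, an imprinted transcription factor known to induce cell cycle arrest and apoptosis in cultured cells. It had 49.8 and 50.3 CPM on the left, against 95.8, 85.1 and 87.2 CPM on the right. The left libraries differed little from each other and lay below every right library, with means of 50.1 ± 0.349 CPM (SD, n = 2) in left bulbs and 89.4 ± 5.68 CPM (SD, n = 3) in right bulbs. In log2 units Plagl1 fell by 0.92 (SE 0.08, adjusted p = 3.43e-04), and the call held without any of the 5 libraries, with an adjusted p of at most 0.00231. Within mice the fall was 0.94 in mouse 1037 and 0.79 in mouse 1039.

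Sequence before a RefSeq start of Plagl1 is shown because this member had the smallest adjusted p. That start lies inside the gene's span given above, downstream of its first annotated base. The 206 bases chr10:13090582-13090787, on the plus strand of GRCm38 in RefSeq, stop before an annotated UTR and are given 5′ to 3′.
Plagl1: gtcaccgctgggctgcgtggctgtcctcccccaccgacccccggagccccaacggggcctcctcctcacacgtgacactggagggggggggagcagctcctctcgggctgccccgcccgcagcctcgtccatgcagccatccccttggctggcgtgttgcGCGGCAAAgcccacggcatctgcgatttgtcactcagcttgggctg
The capitals mark an E2F match in reverse orientation 90 bases before the start. None of the other motifs searched occurred in the window.

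Of 13 other imprinted genes in the table, all tested, 1 rose (7.69%) and 0 fell, against 3.16% higher and 6.46% lower over all genes tested, and their median log2 fold change was 0.12. The gene that rose was Igf2, insulin-like growth factor 2, by 0.64 (SE 0.08, adjusted p = 0.00163). It had 229.6 and 214 CPM on the left, against 135, 122 and 148 CPM on the right, and the groups did not overlap. Plagl1 and Igf2 thus differed between sides in opposite directions.

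The plugged and open bulbs were also compared within each mouse. Of the 32 tested members, 20 (62.5%) had the same sign in mice 1037 and 1039, against 70.1% of all genes tested. The 7 called members had the same sign in both mice, while 12 of the others did not. The calls rest on these same libraries, so the agreement of called members is not separate evidence for them. In 11 members (34.4%) every left library lay above every right library, against 33.2% of all genes tested, and in 5 (15.6%) every left library lay below, against 13.2%. Counted this way, the members were near the background in each direction. These counts use CPM without the TMM factors, for the members and for all genes alike.

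**Figure D4:**
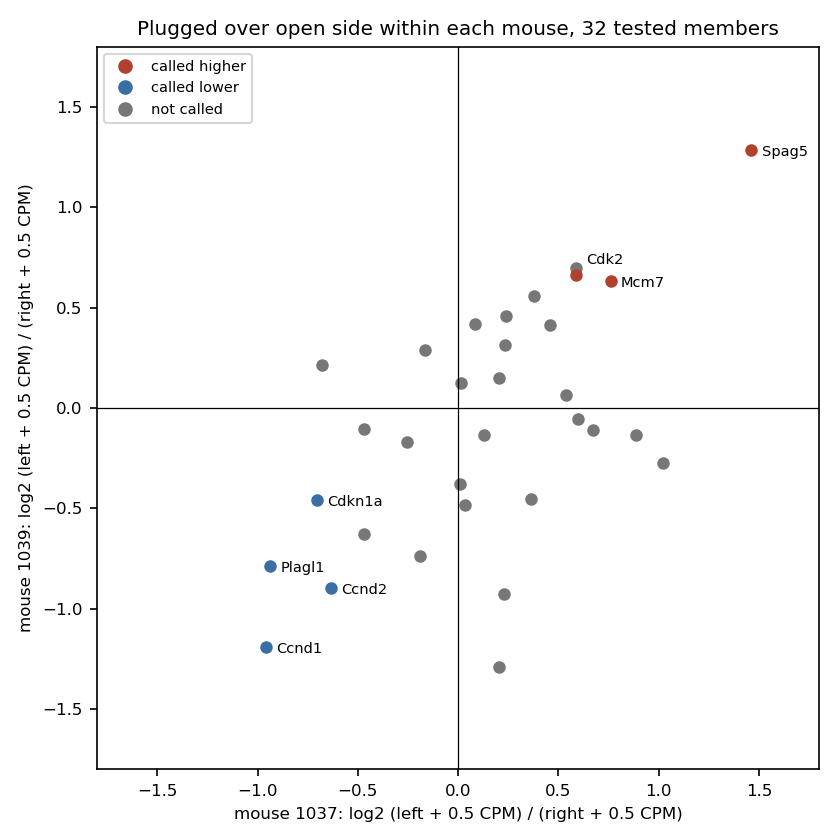
Log2 ratio of left over right, with 0.5 CPM added to each level, in mouse 1037 on the x axis and mouse 1039 on the y axis, for the 32 members tested. Called members, in colour, lie in the lower left or upper right quadrant, from -0.96 and -1.19 for Ccnd1 to 1.46 and 1.29 for Spag5, and the upper left and lower right quadrants hold members that were not called.

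A further 125 cell cycle genes were read beside the members, of which 104 were tested. Of these, 4 rose (3.85%) and 2 fell (1.92%), against 3.16% higher and 6.46% lower over all genes tested, and their median log2 fold change was 0.06. Cdc7, a kinase that fires replication origins, rose by 0.45 (SE 0.10, adjusted p = 0.0191), the gene called among 16 tested for origin licensing and firing. Cdc25b, a phosphatase that activates cyclin-dependent kinases, rose by 0.61 (SE 0.13, adjusted p = 0.0160). Fbxw7, which targets cyclin E and other proteins for degradation, fell by 0.39 (SE 0.07, adjusted p = 0.00723). Ccnf, cyclin F, fell by 0.74 (SE 0.19, adjusted p = 0.0369).

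Of 16 tested further inhibitors and p53 targets, Mdm4 and Btg1 rose (12.5%) and 0 fell. Over all genes tested, 3.16% were called higher and 6.46% lower, which is the background for each list here. Mdm4, an inhibitor of p53, rose by 0.34 (SE 0.06, adjusted p = 0.00889), and Btg1, an antiproliferative gene, rose by 0.41 (SE 0.07, adjusted p = 0.00687). No gene was called among 19 tested for polymerases and nucleotide supply, 18 for pocket proteins and E2F factors, and 21 for spindle, kinetochore and cytokinesis. The call of Ccnf ended when any of the 5 libraries was left out, with adjusted p up to 0.160. That of Cdc7 ended without left 1039, right 1038 or right 1039, with adjusted p up to 0.0697, and that of Cdc25b without left 1039, right 1037 or right 1038, with adjusted p up to 0.0774. DESeq2 with the mouse as a block also ended the calls of Cdc7 (adjusted p = 0.295), Cdc25b (adjusted p = 0.426) and Mdm4 (0.31, adjusted p = 0.0559), while edgeR with the block kept them.

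Marker lists of cell types of the bulb were read in the same libraries, with 3.16% higher and 6.46% lower over all genes tested as the background of their counts. The 9 neuroblast markers summed to 1235 and 1426 CPM on the left, against 1086, 1177 and 1205 CPM on the right, and 2 of the 9 rose and 0 fell. The 7 progenitor markers summed to 148 and 142 CPM on the left, against 137, 130 and 134 CPM on the right, and 0 rose and 1 fell. The 7 markers of oligodendrocyte precursors summed to 228 and 219 CPM on the left, against 243, 243 and 249.6 CPM on the right, and 1 rose and 2 fell. The 9 microglia markers summed to 366 and 380 CPM on the left, against 290, 276 and 293 CPM on the right, and 3 rose and 0 fell. The 6 astrocyte markers summed to 2228 and 2185 CPM on the left, against 1690, 1848 and 1858 CPM on the right, and 2 rose and 1 fell. The 7 sensory neuron markers summed to 188 and 126 CPM on the left, against 457, 392 and 372 CPM on the right, and 0 rose and 5 fell. The 7 ensheathing cell markers summed to 1534 and 1224 CPM on the left, against 1585, 1561 and 1695 CPM on the right, and 0 rose and 1 fell. The sums of the other lists of bulb cell types overlapped between the sides in CPM. In these lists 2 of 5 mitral and tufted cell markers rose, and 1 of 9 bulb interneuron markers rose and 2 fell. Of the endothelial markers 1 of 6 fell, and 0 of 6 oligodendrocyte markers were called. In CPM, summed levels of the neuroblast, progenitor, microglia and astrocyte lists were higher in both left libraries than in every right library. Those of the precursor, sensory neuron and ensheathing lists were lower. With the TMM factors applied, the neuroblast and progenitor sums overlapped between the sides, and the endothelial sums did not. The part of these cell types in the levels of the cell cycle genes was not tested.

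The library labelled left 1038 gave another profile of the same genes. Of the 32 tested members, 6 (18.8%) stood over 2-fold above the median of the 5 bulb libraries in it, against 8.26% of all genes tested, and 10 (31.3%) stood more than 2-fold below, against 18.8%. Mki67 and Top2a had 2 reads each, or 0.137 CPM (0.017 to 0.496 CPM, exact 95% Poisson interval), against 0.863 to 2.20 CPM in the 5. Ccnb1 had 1 read and Cdk6, a kinase of G1, had 1.03 CPM (0.576 to 1.70 CPM). Spag5 stood at 67.3 CPM (63.1 to 71.6 CPM), against at most 11.5 CPM in the 5, and Aldoc, the gene beyond its end, at 2319 CPM. Mcm2 stood at 14.4 CPM (12.5 to 16.5 CPM) and Ccne2 at 16.7 CPM (14.6 to 18.9 CPM). These intervals cover counting error only, and 1 library allows no test.

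**Figure D5:**
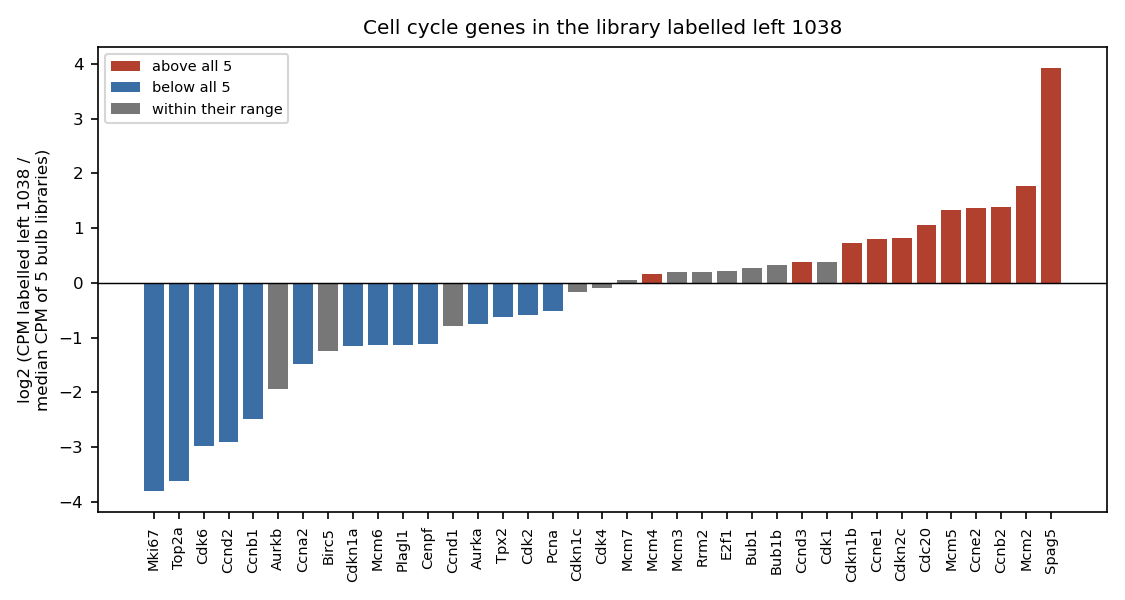
Log2 ratio of the CPM in the library labelled left 1038 to the median CPM of the 5 bulb libraries, for the 37 members in rising order. Red bars lie above all 5 libraries, blue bars below all 5 and grey bars within their range. Mki67 and Top2a stand at the low end and Spag5 at the high end.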

How the data were processed

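Polyadenylated RNA was measured in 6 libraries, and the authors deposited raw whole-number counts of reads per gene. RPKM values and a gene length that the authors also deposited were not used, because that length is close to the genomic span. The submitters' processing notes name HTSeq 0.6.1p2, DESeq 1.18.0, cutadapt 1.2.1, TopHat2 and GRCm38, without saying what each did. Strand use in counting and the treatment of reads with several positions were not stated. Of the identifiers, 21852 were matched to a symbol and 243 were not. Coordinates and exon lengths are from GENCODE on GRCm38, and promoters from RefSeq on GRCm38.p6.

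Tests used edgeR 4.0.16 (glmQLFit, glmQLFTest, TMM, filterByExpr) under R 4.3.3. Side was the term, p-values were two-sided, and the Benjamini-Hochberg adjustment ran over every gene tested. The SE is the absolute log2 fold change divided by the square root of F. Ratios within mice used CPM with 0.5 added. The fit was tested on simulated data. Libraries of a side come from different animals, and mouse numbers pair the sides. Deviations from the side means correlated at 0.233 in mouse 1037 and 0.248 in mouse 1039. With 2 left libraries the left deviations mirror each other, so these values are not independent. No value between different mice is given, so they do not measure the strength of the pairing. The comparison had no block. With the block in the 5 libraries, the side difference rests on mice 1037 and 1039, because the other mouse has only its right library there. Alternatives were the mouse as a block, RLE factors, total library size, no low-count filter, at least 1 CPM in 2 libraries, DESeq2 1.42.0, limma-voom (limma 3.58.1), all 6 libraries and leaving out each library.

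The members, gene lists and the choice of 5 libraries were made with earlier results of these data known. Values per library are given for called members, for members whose call changed with the block and for the most abundant member of each role. Of the other cell cycle lists, called genes are named, at most 6 per direction. Neighbouring genes, Igf2 and further members were chosen after their values were seen.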

Additional observations from a re-analysis of the deposited data

Results flagged for a closer look

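The levels of 4 members stood more than 2-fold above every other library in the library labelled left 1038, which the 5-library comparison does not use. Spag5 had 67.3 CPM in it, against at most 11.5 CPM in the other 5 libraries. Ccne2, cyclin E2, had 16.7 CPM, against at most 7.04 CPM. Mcm2 had 14.4 CPM, against at most 4.73 CPM. Ccnb2 had 3.29 CPM, against at most 1.49 CPM. The share of all genes that stood as far above every other library was not counted, so the number of members has no background here. This library also held the cerebellar granule cell markers given above, whose part in these levels was not tested.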

How the results depend on the processing

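In the 5 libraries 3 members were called higher, 4 lower and 1387 genes in all. With all 6 libraries the counts were 0, 0 and 0. Under DESeq2 with the mouse as a replicate block 0 members were called higher and 432 genes in all; it gave no adjusted p for Spag5 and Cdk2, and Mcm7 had 0.63 (adjusted p = 0.0632). edgeR with the block called 1553 genes and, beside ending the call of Cdk2, changed no other member's call. Leaving out a library left 1 to 2 members called higher, 3 to 4 lower and 660 to 1096 genes in all. The lower bounds came without right 1038 for all genes (669 without right 1037, 885 without left 1039), without left 1039, right 1037 or right 1039 for members higher, and without left 1039 or right 1037 for members lower. In these fits a lone left library is assumed to vary like the right ones. Of the 6-library counts, DESeq2 gave 4 members and 186 genes, and leaving out a library gave 0 to 7 members and 0 to 1387 genes, with calls only without left 1038.

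No called member changed sign in 96 fits under alternatives, and 20 of these ended a call. Of 319 fits of members not called, 0 made a call and 23 changed the sign. Across leave-outs of 1 library the values ran from -0.19 to 0.0868 for Ccnd3, -0.48 to 0.0274 for Cdk6, -0.97 to 0.33 for Ccne1, -0.0058 to 0.15 for Ccne2, -0.999 to 0.31 for Ccna2, -0.12 to 0.12 for Pcna, -0.0736 to 0.21 for Mcm2, -0.0074 to 0.62 for Mcm3, -0.65 to 0.16 for Mki67 and -0.0795 to 0.78 for Cdc20. Without a change of sign in these leave-outs, they moved by over 1.5 times for Birc5 (-1.55 to -0.28), Top2a (-1.14 to -0.17), Rrm2 (-1.82 to -0.44), E2f1 (-0.90 to -0.25), Ccnb2 (0.19 to 0.85), Cdk4 (0.14 to 0.29) and Mcm4 (0.083 to 0.20). The same held for Mcm6 (0.0336 to 0.58) and Tpx2 (0.0796 to 0.33). None of these was called. Of the called members, Ccnd2 moved as far (-1.20 to -0.54). With total library size, which moves the median of all genes to 0.09, Ccnd3 had 0.0311 and Pcna 0.0812. With 6 libraries Ccnd3 had 0.12, Ccne1 0.18, Mcm6 -0.00 and Tpx2 -0.0042. Ccne2 had -0.0095 with the replicate block. Pcna had 0.0021 with RLE factors, 0.0063 with no filter, 0.0064 with the 1 CPM filter and 0.0022 by DESeq2. The cause was not tested.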
